A study of Arabidopsis thaliana with 4 samples.

Results

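The 288 Arabidopsis transcripts described here fell 3-fold or more within 30 min of moving seedlings into glutamate. They were chosen from the deposited RPKM table (reads scaled by transcript length and library size) by 3 criteria. The column maxMultiRatio, which its header does not define and which was read as the largest fraction of reads shared with other loci, had to be under 0.1. The mean of the control libraries had to be at least 5 RPKM, and the mean of the glutamate libraries had to be no more than the control mean divided by 3. Of the 33602 genes in the table, 11886 met the criteria on maxMultiRatio and on the control level, and 288 of those, or 2.42%, met all 3. The fall itself chose these genes, so its size in each of them is a description and carries no test.

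The study looked for early transcript responses to glutamate, an amino acid that is both a nitrogen source and a signal in plants. Wild-type Col-0 seedlings, 14 days old, had grown in 1/2 MS solution lacking nitrogen (pH 5.7, 22 °C, long days). The control group was taken at 0 h, and the glutamate group after 0.5 h in the same kind of solution holding glutamate at 2.5 mM. Each group has 2 RNA-seq libraries, all with the same batch label. Seedlings moved to fresh solution without glutamate were not among the libraries, so the move, the elapsed time of day and glutamate cannot be told apart. Nothing in the labels says that libraries of one group are separate cultures, so p-values cover only how these libraries vary, possibly for technical reasons.

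The level of a transcript at any time is set by its synthesis and its decay. In plants, as in other eukaryotes, most decay begins when deadenylases, chiefly the CCR4-NOT complex, shorten the poly(A) tail, after which the cap is removed and exonucleases degrade the body of the transcript. Transcripts of regulators, such as transcription factors and auxin-induced genes, are known for short lives, which lets their level follow a change in synthesis within minutes.

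A fall within a fixed time limits how long a transcript can have lasted. If synthesis stopped completely at 0 h and decay was first-order, the half-life was 30 min times the natural logarithm of 2, divided by the natural logarithm of the ratio of control to glutamate mean. Any synthesis that continued, or any delay before synthesis fell, would require faster decay, so this value is an upper bound on the mean half-life during the treatment. It takes the deposited scaling between libraries as given. It does not say how long the transcript lasted before glutamate was added, and a drop in synthesis and a speeding of decay cannot be told apart in these libraries.

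The criterion of a 3-fold fall corresponds to a bound of 18.9 min. Over the 288 transcripts the median bound was 15.1 min, with quartiles of 13.1 and 16.8 min. The lowest bound was 6.28 min and the highest 18.9 min. Bounds under 15 min were found for 140 transcripts, under 12 min for 44, under 10 min for 20 and under 8 min for 5. The histogram of the bounds shows that most members lie in the upper part of the allowed range.

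**Figure D1:**
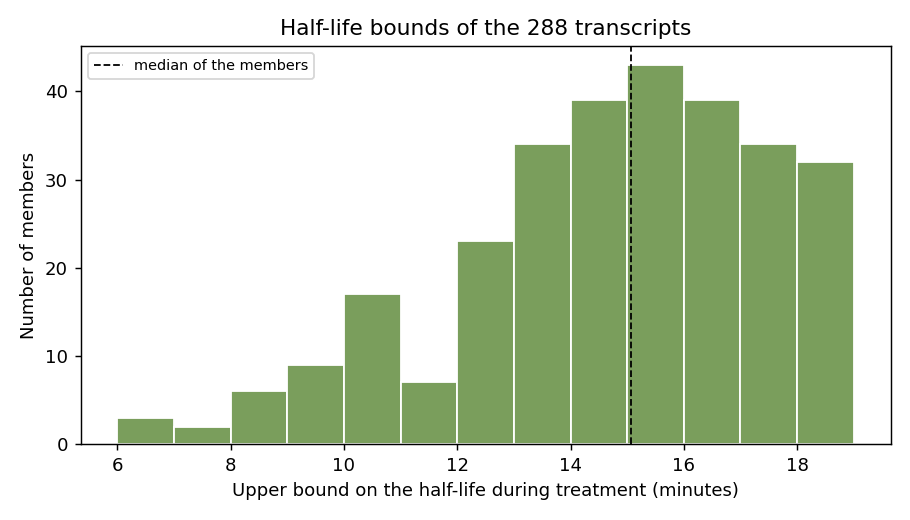
Number of members (vertical axis) by upper bound on the half-life during treatment in minutes (horizontal axis, bins of 1 min), from the group means of 2 libraries each. The dashed line is the median, 15.1 min, and only 20 of the 288 transcripts lie under 10 min.

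In terms of what was left, the median member kept 25.2% of its control level, 67 kept 20% or less and 12 kept 10% or less. In each of the 288, both glutamate libraries lay below both control libraries. In 187 of them every pairing of a single control with a single glutamate library also gave a fall of 3-fold or more, and 220 still met all criteria whichever library was left out. The criteria used these same libraries, so a lack of overlap was close to fixed in advance and these counts only describe the members. Lack of overlap was not counted over all eligible genes. The median bound hardly depended on the pairing, at 14.8 to 15.1 min over the 4 pairings of single libraries. For a single transcript the pairing mattered more, with a median gap of 3.09 min between its lowest and highest bound. A pairing with a bound over the 18.9 min of the criterion was found for 101 transcripts. The widest case was AT4G05071, a locus of 0.144 kb with 54 control and 13 glutamate reads, whose bound was 17.7 min from the means and up to 55.8 min from a single pairing.

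The same contrast was fitted over the 17750 genes whose mean reached 1 RPKM, using limma on log2(RPKM + 1) with Benjamini-Hochberg adjustment. There 14.6% of the genes tested were lower at an adjusted p under 0.05. Of the 288 members 286 were called lower, and nothing is read from that count because the same contrast chose them. The others were AT2G12461 (adjusted p = 0.0529) and AT4G05071 (adjusted p = 0.0891 by limma), loci of 0.135 and 0.144 kb. These are among the 7 members with fewer than 20 glutamate reads.

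The control means of the members spanned 5.16 to 1436 RPKM, with a median of 27.2 RPKM against 18.6 RPKM over the 11886 eligible genes. There were 45 members at 100 RPKM or more and 56 under 10 RPKM. Bounds were alike across levels: the 96 members with the highest control means had a median bound of 15.4 min, the middle 96 one of 14.8 min and the lowest 96 one of 15 min. The members together held 2.74% of the summed RPKM of the control libraries and 0.598% of that of the glutamate libraries. In seedling libraries such as these, fewer cells of a type and less RNA per cell cannot be told apart.

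Facts of the libraries were as follows. Reads recovered from the deposited values numbered 23669908 and 27674435 in the control libraries and 21776595 and 24599752 in the glutamate libraries, so that 3 reads in a gene of 1 kb were worth 0.104 to 0.152 RPKM. The 8 shoot markers summed to 13848 and 13268 RPKM in the control and 11298 and 10011 RPKM in the glutamate libraries, and 2 of them (LHCB4.2 and RCA) were called lower by limma. The 8 root markers summed to 38.3 and 23.5 RPKM against 23.3 and 17.7 RPKM, with none called. The root-hair genes COBL9, EXPA7 and EXPA18 were under the 1 RPKM filter and were not tested. COBL9, with group means of 0.253 RPKM in the control and 0.103 RPKM in glutamate, was near the floor of detection. The 4 guard cell markers summed to 23.4 and 21.9 RPKM against 22.6 and 25 RPKM, and the 2 phloem markers to 49.1 and 31.9 RPKM against 48.7 and 35.3 RPKM. Markers of shoot and root were both detected in these whole seedlings, and none of the 22 markers is a member. LHCB4.2 came closest, with 33.9% left. The part of tissue make-up in the members' fall was not tested.

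The transcript with the least left was UGT73C1 (AT2G36750, chromosome 2, 15410376 to 15412064, minus strand, a single exon), a UDP-glycosyltransferase of the group that attaches glucose to cytokinins and to foreign compounds. It was measured at 20.1 and 17.8 RPKM in the control libraries and at 0.818 and 0.567 RPKM in the glutamate libraries. Its mean fell from 18.9 ± 1.69 to 0.693 ± 0.178 RPKM (SD, n = 2 libraries each), leaving 3.66%, and its bound was 6.28 min. Counting error alone, from 1618 control and 45 glutamate reads, put the bound between 5.67 and 6.81 min (exact binomial interval, 95%). As in every member, the groups did not overlap, and the difference between them was larger than the spread within either. The criterion used these same libraries, so this describes the fall and gives it no support.

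RTFL10 (AT3G14362) encodes a small protein of the ROTUNDIFOLIA-like family, whose members restrict cell proliferation along organs when overproduced. Its 5.75 and 4.59 RPKM in the controls became 0.239 and 0.206 RPKM, with 4.31% left and a bound of 6.61 min. Only 6 glutamate reads underlie that value, and the counting interval of the bound reached from 4.81 to 8.28 min. BRU6 (AT4G37390), also known as GH3.2, encodes an enzyme that conjugates the auxin indole-3-acetic acid to amino acids. It stood at 35.8 and 27.1 RPKM in the controls and at 1.48 and 1.24 RPKM in glutamate, with 4.32% left and a bound of 6.62 min. As in every member, the groups did not overlap in either RTFL10 or BRU6.

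CYP81D11 (AT3G28740), a cytochrome P450 known for its induction by foreign compounds and cis-jasmone, was the most abundant transcript among the 10 with the least left. It was measured at 204 and 182 RPKM in the controls and at 12 and 9.04 RPKM in glutamate, with 5.45% left and a bound of 7.15 min. With 16701 control and 709 glutamate reads, its counting interval was 6.93 to 7.30 min. The 6 others of those 10 were AT1G70860 (polyketide cyclase family), AT2G34000 (RING/U-box protein), AT5G54585 and AT4G29905 (uncharacterized), WRKY49, a transcription factor, and HAT2, an auxin-inducible homeodomain-leucine zipper factor. Their bounds ran from 7.28 min for AT1G70860, which rested on 6 glutamate reads, to 8.78 min for HAT2. WRKY49 was the steadiest, at 41.4 and 40.8 RPKM in the controls and 3.36 and 3.34 RPKM in glutamate, which gave 8.26 to 8.33 min over the pairings.

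Upstream sequences are shown for 4 of these steep fallers, since the members were searched for shared promoter motifs. They are the pair with the least left among members with at least 100 control reads, followed by the 2 members with the least left whose window holds an I-box. Each is the 250 bases before the annotated RefSeq start in TAIR10.1, read 5′ to 3′ on the gene's strand. Capitals mark the I-box (GATAAG or its complement CTTATC), the TATA box (TATAAA or TTTATA) and the as-1 core (TGACG or CGTCA). The windows are chr2:15412065-15412314 (minus) for UGT73C1, chr3:4794418-4794667 (minus) for RTFL10, chr3:10790554-10790803 (minus) for CYP81D11 and chr2:14364681-14364930 (plus) for AT2G34000.
UGT73C1: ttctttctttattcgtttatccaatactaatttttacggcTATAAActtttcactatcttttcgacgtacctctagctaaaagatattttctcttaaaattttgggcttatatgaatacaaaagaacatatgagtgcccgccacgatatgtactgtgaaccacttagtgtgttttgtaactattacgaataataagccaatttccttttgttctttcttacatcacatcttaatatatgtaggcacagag
RTFL10: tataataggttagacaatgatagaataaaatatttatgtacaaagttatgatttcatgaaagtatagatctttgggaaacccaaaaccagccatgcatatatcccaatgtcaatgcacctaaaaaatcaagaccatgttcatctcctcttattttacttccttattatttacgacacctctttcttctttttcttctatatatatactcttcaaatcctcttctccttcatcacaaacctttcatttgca
CYP81D11: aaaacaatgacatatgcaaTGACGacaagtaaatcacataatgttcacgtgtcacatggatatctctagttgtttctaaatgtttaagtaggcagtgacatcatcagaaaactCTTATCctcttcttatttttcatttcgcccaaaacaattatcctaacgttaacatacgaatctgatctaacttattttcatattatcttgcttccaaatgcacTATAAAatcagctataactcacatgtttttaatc
AT2G34000: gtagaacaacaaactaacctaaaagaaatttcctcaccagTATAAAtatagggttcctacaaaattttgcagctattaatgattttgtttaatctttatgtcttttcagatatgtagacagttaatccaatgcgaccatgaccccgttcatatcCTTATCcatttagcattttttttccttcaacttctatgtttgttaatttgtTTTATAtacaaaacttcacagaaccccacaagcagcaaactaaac
RTFL10 has none of the 3 motifs in this window, UGT73C1 has a TATA box match far upstream at -210, and CYP81D11 has a TATA box at -34, an I-box at -137 and an as-1 core at -231. AT2G34000 has an I-box at -96 and TATA box matches at -45 and -210. Positions count the first base of the match back from the annotated start. A match is a run of letters and was not tested as a site.

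The 10 most abundant members began at 405 to 1436 RPKM. AT3G15450, a protein named for induction by aluminium, stood at 1629 and 1242 RPKM in the controls and at 427 and 398 RPKM in glutamate, with 28.7% left and a bound of 16.7 min. J8, a chloroplast DnaJ chaperone, went from 1116 and 1163 RPKM to 368 and 352 RPKM. AT1G56220, of the dormancy- and auxin-associated family, went from 974 and 1164 RPKM to 221 and 317 RPKM. These 3 transcripts lost more RPKM than any other member, although the share each kept was near or above the median of the members.

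Next in level were MEE14 (925 and 981 RPKM, then 253 and 291 RPKM), RTFL17 (534 and 650 RPKM, then 155 and 174 RPKM) and UGT72E1, a glucosyltransferase of lignin precursors (627 and 525 RPKM, then 138 and 157 RPKM). PMT6, a sugar transporter of the major facilitator family, fell from 585 and 406 RPKM to 151 and 116 RPKM. MYBL2, a repressor of anthocyanin synthesis, fell from 416 and 491 RPKM to 128 and 127 RPKM. In each of these 5, as in every member, the groups did not overlap, with PMT6 the most variable in the controls.

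AT1G23390 and AT5G61590 joined a high level to a steep fall. AT1G23390 is a kelch F-box protein that targets chalcone synthase, the entry enzyme of flavonoid synthesis, for degradation. It was measured at 441 and 429 RPKM and then at 59.3 and 68.8 RPKM, with 14.7% left and a bound of 10.9 min (counting interval 10.7 to 11.1 min). AT5G61590 is the AP2/ERF factor DEWAX, a repressor of wax synthesis, measured at 404 and 406 RPKM and then at 54.3 and 51.3 RPKM, with 13.0% left and a bound of 10.2 min. The plot of the single libraries shows that the spread within a group is small beside the fall for all but a few of these 20 transcripts.

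**Figure D2:**
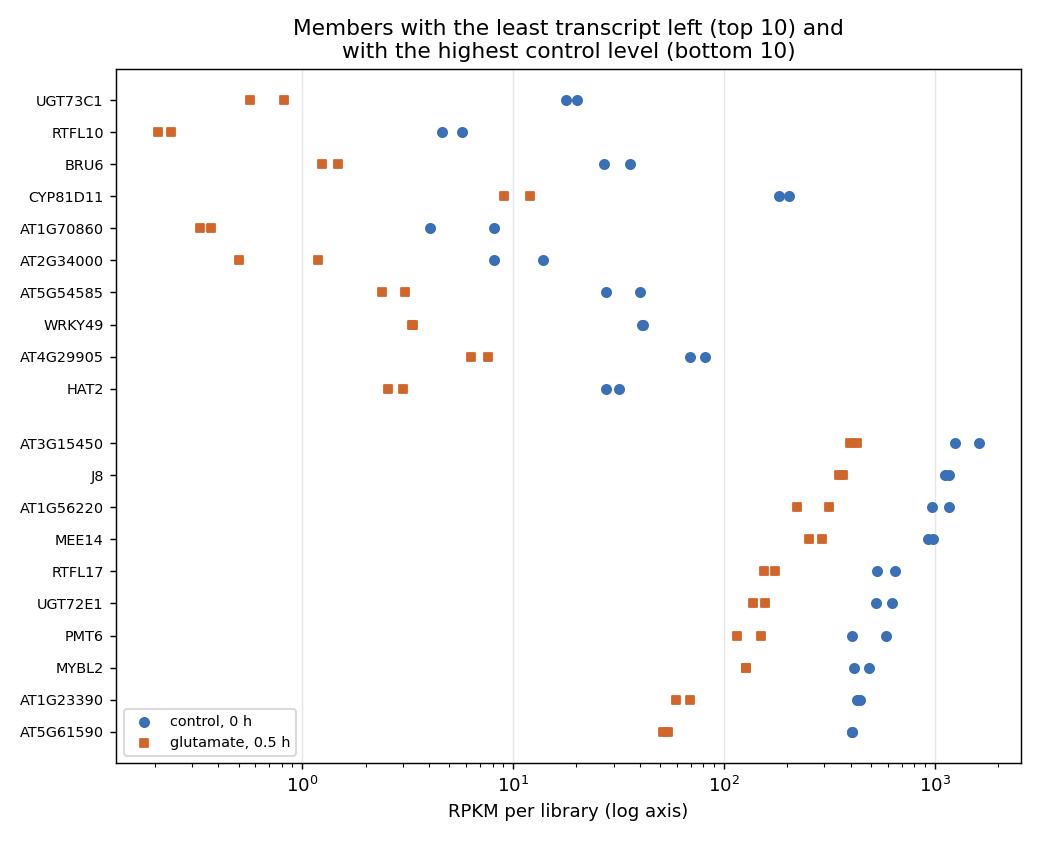
RPKM in each of the 4 libraries (log axis) for the 10 members with the least transcript left and the 10 with the highest control level, with control libraries as blue circles and glutamate libraries as orange squares. As in every member, no orange point reaches a blue one in any row, with AT1G70860 (4.03 and 8.10 RPKM in the controls) among the widest within a group.

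The protein classes were read from the RefSeq product names. By share of their eligible genes, the classes with the most members were ROTUNDIFOLIA-like proteins and other signalling peptides (5 of 16, 31.3%), SAUR proteins (4 of 14, 28.6%) and the auxin-conjugating GH3 enzymes (2 of 7, 28.6%). Cytochrome P450s followed with 13 of 63 (20.6%), then B-box or CCT factors (6 of 31) and UDP-glycosyltransferases (12 of 62) with 19.4% each, and BTB or NPH3 proteins with 6 of 34 (17.6%). Transcription factors of all families supplied 52 members of 533 eligible genes (9.76%). Proteins of none of the classes supplied 81 of 8277 (0.979%), against 2.42% over all eligible genes. These shares describe the members, and no test was run on them. Members named below for a known role, and not for level or for the share left, were picked after their values were seen.

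**Figure D3:**
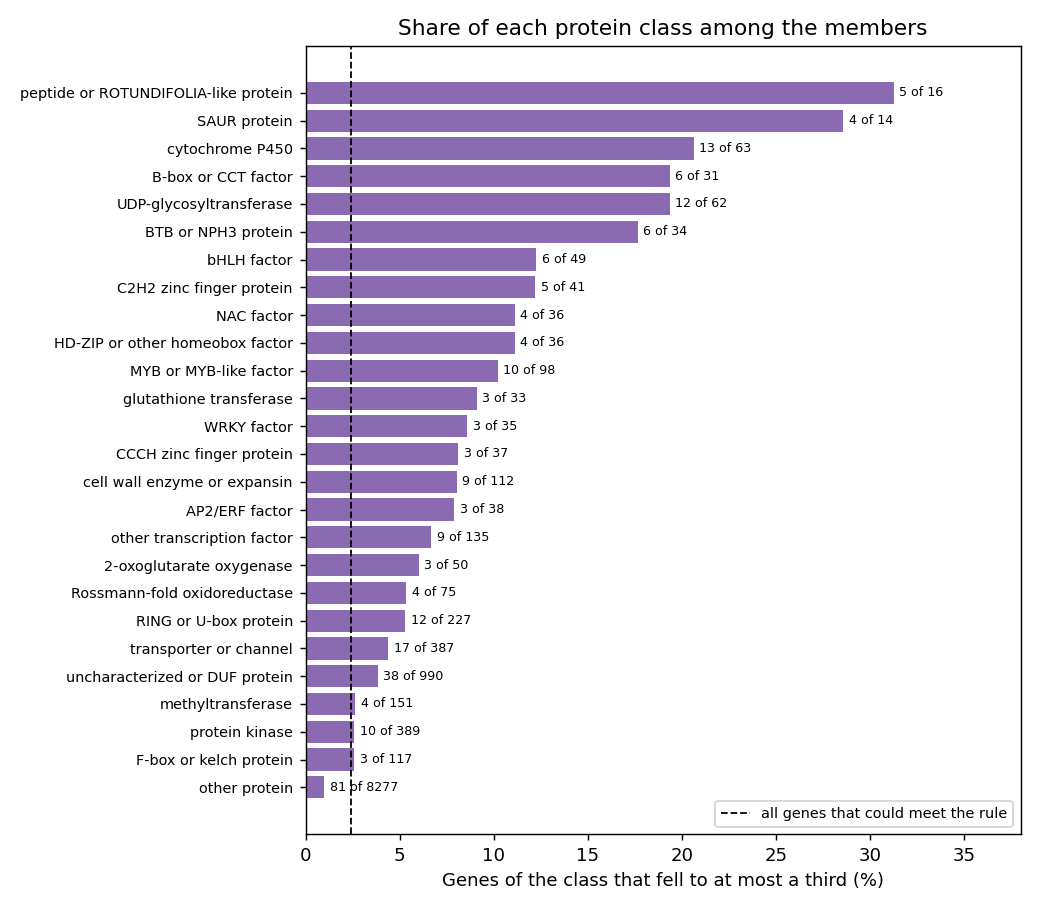
Share of each protein class, in percent of its eligible genes, that fell 3-fold or more, for classes with at least 3 members. The dashed line marks the 2.42% of all eligible genes, and the bars run from 31.3% for peptides and ROTUNDIFOLIA-like proteins to 0.979% for proteins of no class.

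Among the small-molecule enzymes, the P450s had bounds from 7.15 to 17.5 min with a median of 14.5 min. Besides CYP81D11, those with the highest control levels were CYP71B26 (166 and 108 RPKM, then 31.6 and 21.5 RPKM) and CYP89A2 (86.7 and 75.3 RPKM, then 19.7 and 17.1 RPKM). Members with a known substrate include FAH1, the ferulate 5-hydroxylase of lignin and sinapate synthesis (24.3% left), CYP707A2, an abscisic acid 8′-hydroxylase (18.4% left), and BAS1, which inactivates brassinosteroids (26.7% left). Of the 63 eligible P450 genes, limma called 37 lower and 6 higher, against 1991 lower (16.8%) and 1753 higher (14.7%) among all 11886 eligible genes.

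The 12 UDP-glycosyltransferases had a median bound of 15 min. UGT73B1 fell from 135 and 113 RPKM to 18.8 and 16.4 RPKM (14.2% left), and its neighbour UGT73B2 kept 24.4%. UGT74F2, which glucosylates salicylic acid, kept 23.5%, UGT74E2, which glucosylates the auxin indole-3-butyric acid, kept 14.9%, and UGT72E2, another glucosyltransferase of lignin precursors, kept 15%. Of the 62 eligible genes of the family 30 were called lower and 8 higher by limma. Glutathione transferases GSTU1, GSTU16 and GSTU2 kept 28.5% to 33.1%, with bounds of 16.5 to 18.8 min, near the limit of the criterion. The 2-oxoglutarate oxygenases FLS5, AT1G06645 and AT1G52800 kept 27.2%, 26.8% and 9.63%. Among oxidoreductases of the Rossmann fold, AT4G13180, AT2G29320 and AT1G64590 kept 30.7%, 22.2% and 17.7%. The methyltransferases AT1G15125, AT1G21920 and PXMT1 kept 21.5%, 21.9% and 27.4%, although the product name of AT1G21920 is that of a histone methyltransferase family.

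Auxin-related transcripts numbered 7 of 37 eligible. The SAUR proteins, small products of auxin-induced growth, were AT2G46690 (97.4 and 88.2 RPKM, then 26 and 22.8 RPKM), AT4G38840 (33.2 and 31.7 RPKM, then 7.17 and 6.18 RPKM), AT3G61900 and AT1G29450. The Aux/IAA repressor ATAUX2-11 fell from 77.9 and 65.1 RPKM to 16.0 RPKM in both glutamate libraries, and the GH3 enzyme DFL2 from 39.2 and 41.3 RPKM to 8.23 and 9.05 RPKM. All 7 eligible GH3 genes were called lower by limma, against 16.8% of all eligible genes. The other auxin classes were mixed, with 7 lower and 3 higher of 14 SAUR genes and 7 lower and 1 higher of 16 Aux/IAA genes. Outside these classes, TAA1, the tryptophan aminotransferase of auxin synthesis, kept 23.2%, and PIN3, an auxin efflux carrier, kept 23.2%. The auxin-inducible homeodomain factors HAT2 and HAT3 kept 9.35% and 25.7%, and HB53 kept 11.3%.

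The 52 transcription factors had a median bound of 14.7 min, from 8.29 min for WRKY49 to 18.9 min for NF-YB3. Several are known from light responses or the circadian clock. PRR5, a repressor of the circadian clock, fell from 91.4 and 87.8 RPKM to 19.1 and 21.9 RPKM, and BBX14 from 54.9 and 47.8 RPKM to 13.0 and 11.9 RPKM. RVE1 and RVE2, MYB-like factors of the clock, kept 16.5% and 28.7%. HFR1, a bHLH factor of shade avoidance, went from 23.5 and 22.4 RPKM to 5.47 and 5.31 RPKM, and FBH4, a bHLH activator of CONSTANS, kept 24.1%. BEE3, a brassinosteroid-induced bHLH factor, kept 19.0%, and the CCT protein AT4G27900 kept 26.5%.

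Other factors act in senescence, chloroplast development and flavonoid synthesis. NAC6, known as the senescence regulator ORE1, went from 92.0 and 89.3 RPKM to 18.4 and 17.0 RPKM, and the senescence factor NAP from 39.0 and 39.1 RPKM to 10.9 and 10.6 RPKM. GLK2, an activator of chloroplast development, went from 99.6 and 102 RPKM to 20.4 and 24 RPKM. MYB59 kept 23.6% and NAC3 28.1%. Zinc finger factors ZFP6 and AT2G28200 kept 12.5% and 12.4%, the AP2/ERF factor TNY (listed as tny) kept 13.7%, and WRKY7 and WRKY3 kept 31.7% and 32.2%. The floral regulator AP2 kept 31.4%, the growth-regulating factor GRF3 30%, the MYB-like AT1G74840 31.7%, LBD21 21.3% and the zinc finger protein AT5G22890 25%. By limma 11 of 35 eligible WRKY genes were lower and 12 higher, and 11 of 38 AP2/ERF genes were lower and 14 higher. Of 49 bHLH genes 22 were lower and 5 higher. The lower shares of these families, 31.4%, 28.9% and 44.9%, stand beside 16.8% of all eligible genes, and the higher shares, 34.3%, 36.8% and 10.2%, beside 14.7%.

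Among signalling proteins, the kinases gave 10 of 389 eligible genes (2.57%), close to the 2.42% of all, and their bounds were 13.2 to 18.7 min. They included SNRK2-8 (29.2% left), PK1B (30.8% left) and the calcium-sensor-associated kinase CIPK25 (20.8% left). Over all eligible kinases limma called 60 lower (15.4%) and 113 higher (29.0%). The lower share is near the 16.8% of all eligible genes, and the higher share is above their 14.7%. Of the peptides, RTFL16 kept 22.2%, RGF9, a root meristem growth factor, kept 14.1% and CLE2 kept 23.3%.

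The ubiquitin ligase components comprised 12 of 227 eligible RING or U-box proteins (5.29%), 6 of 34 BTB or NPH3 proteins (17.6%) and 3 of 117 F-box or kelch proteins. The last share, 2.56%, is near the 2.42% of all eligible genes. RPT2, an NPH3 protein of phototropism, fell from 268 and 230 RPKM to 73.9 and 68.9 RPKM. AT1G80440, a kelch F-box protein that targets enzymes of phenylpropanoid synthesis, kept 32.1%, and FBS2 kept 22.8%. The RING proteins ranged from AT2G34000, with 7.73% left on 16 glutamate reads, to AT1G24440 with 33.1%. The most abundant of them, AT5G22920, ATL15 and RMA2, kept 30.4%, 32% and 26.7%. The 6 BTB or NPH3 proteins were tightly grouped, with bounds of 15.5 to 17.3 min, and included BT4 (30.1% left) and AT3G22104 (26.1% left).

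Transporters supplied 17 of 387 eligible genes (4.39%), and several carry nitrogen compounds. The ammonium transporters AMT1;3 and AMT1;2 fell from 22.1 and 18.7 RPKM to 3.12 and 2.69 RPKM and from 17.6 and 13.4 RPKM to 2.68 and 2.38 RPKM. NRT1.5, which loads nitrate into the xylem, went from 36.2 and 26.4 RPKM to 5.61 and 4.80 RPKM. These 3 kept 14.3% to 16.6%, and no other transporter among the members kept less than 20%. NRT1.8, which unloads nitrate, kept 30.2%, the amino acid transporter CAT6 24.4%, the glutamate receptor-like channel GLR3.5 25.1%, and GDU1, a regulator of amino acid export, 20.4%. TDT, the vacuolar malate carrier, went from 155 and 136 RPKM to 40.2 and 33.1 RPKM, and the cation exchanger CHX16 from 144 and 92.9 RPKM to 35.9 and 29.2 RPKM.

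Cell wall enzymes gave 9 members of 112 eligible. The β-galactosidases BGAL4 (250 and 201 RPKM, then 57.8 and 48.9 RPKM) and BGAL1 (153 and 118 RPKM, then 34.7 and 28.1 RPKM) and the β-xylosidase BXL1 (137 and 111 RPKM, then 43.8 and 35.5 RPKM) were the most abundant. Their control and glutamate libraries did not overlap, as in every member. BGAL1 has 19 exons, the most of any member, and kept 23.2%.

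Pigment and plastid genes were found among proteins of no listed class. CH1, the chlorophyllide a oxygenase that makes chlorophyll b, went from 74.5 and 73.1 RPKM to 19.4 and 17.9 RPKM, and GUN4, a cofactor of magnesium chelatase, from 88.4 and 95.3 RPKM to 22.1 and 20.4 RPKM. PDS1, the dioxygenase at the start of plastoquinone and tocopherol synthesis, was at 161 and 156 RPKM and then at 40.5 RPKM in both glutamate libraries. NCED4, a carotenoid cleavage dioxygenase, fell furthest, from 44.1 and 43.6 RPKM to 4.65 and 4.16 RPKM, with a bound of 9.05 min. The cyclin CYCP2;1 (9.97 min) and MAKR6, a membrane-associated kinase regulator (9.04 min), also had bounds under 10 min.

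The class of uncharacterized proteins and proteins with a domain of unknown function gave 38 members of 990 eligible (3.84%). Some of these have a known function, such as TAA1, and 24 of the 38 have a single exon. The most abundant were AT1G80180 (230 and 401 RPKM, then 69.0 and 114 RPKM), AT2G37750 (194 and 243 RPKM, then 32.7 and 45.3 RPKM) and AT4G39675 (175 and 149 RPKM, then 42.0 and 36.5 RPKM). AT1G80180 was among the most variable abundant members, since its pairings gave bounds from 11.8 to 29.7 min. The 3 members that do not encode protein were the microRNA loci MIR414 (22.5% left) and MIR156d (32.9% left) and the pseudogene AT1G70885 (9.93% left). AT1G70885 had 9 glutamate reads, and the counting interval of its bound was 6.53 to 12.2 min. MIR156d had 5 glutamate reads, overlaps AT5G10946, and its counting interval of 8.30 to 68.8 min leaves its bound undetermined.

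At the limit of the criterion, the 3 members just inside were GSTU2, DOGT1 and NF-YB3, with 33.1%, 33.2% and 33.3% left. The 3 genes just outside were AT2G41250, CCL and AT3G27350, with 33.4% left each, and CCL was the most abundant of them at 2409 RPKM in the control mean and 805 RPKM in the glutamate mean. For the 3 inside, single pairings gave bounds on both sides of the limit, such as 13.1 to 30.4 min for GSTU2.

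In gene structure, single-exon genes made up 95 of the 285 protein-coding members (33.3%) and 1286 of the 11466 other eligible protein-coding genes (11.2%). The share was 45.5% among members with no more than 20% left and 29.7% among the rest of the members. Outside the members it was 19.2% where 33.3% to 50% was left, 7.38% where the level fell by less than 1.5-fold, and 31.2% among genes that rose more than 3-fold. Single-exon genes were thus frequent at both ends of the change, and their frequency is not particular to the falling transcripts. The median number of exons was 2 in members and 5 in other eligible genes, with median lengths of 1276 and 1517 bases.

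**Figure D4:**
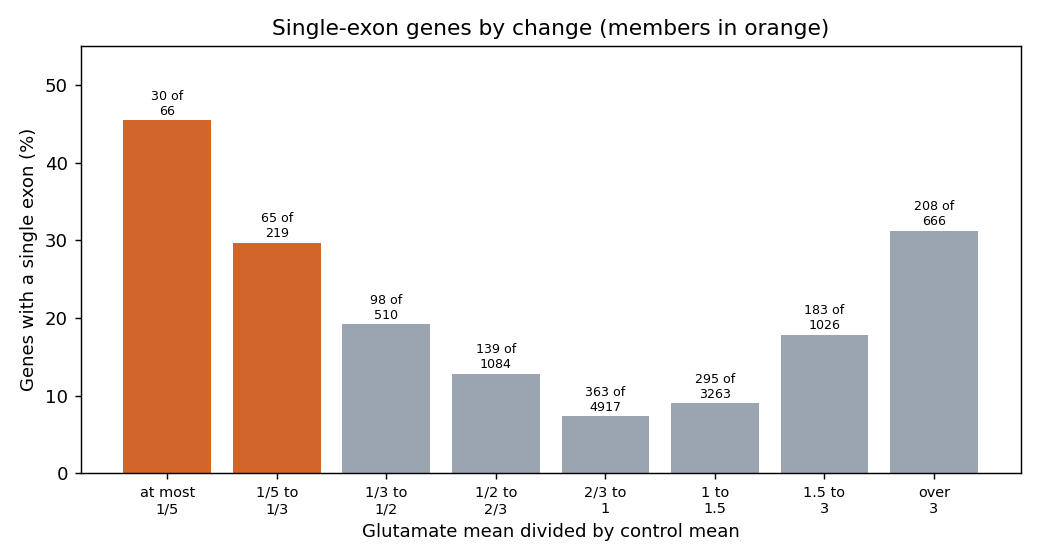
Share of single-exon genes, in percent, by ratio of glutamate mean to control mean among eligible protein-coding genes, with members in orange and the counts above each bar. The share is 45.5% in the leftmost bar, 7.38% where the ratio is just under 1 and 31.2% among genes over 3-fold higher.

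Part of this difference lay between classes and part within them. Single-exon genes were 8 of the 12 member glycosyltransferases against 12 of the 50 other eligible ones. They were 27 of 81 against 732 of 8196 among proteins of no class. Among uncharacterized proteins and those with a domain of unknown function the counts were 24 of 38 and 227 of 952. All 5 C2H2 zinc finger members have a single exon, against 11 of 36 others. Other classes went the other way. Single-exon genes were 0 of 10 MYB members against 10 of 88 others, 2 of 4 SAUR members against 10 of 10, and 0 of 9 cell wall enzymes against 16 of 103. They were also 0 of 6 bHLH members against 6 of 43, 0 of 6 BTB or NPH3 members against 2 of 28, and 0 of 4 methyltransferases against 11 of 147. For bZIP factors the counts were 0 of 2 and 4 of 32, and for protein phosphatases 0 of 1 and 1 of 80. The 3′ untranslated regions had similar median lengths, 254 bases in members and 273 in other eligible genes.

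Some members lie side by side. Another member was a directly adjacent gene on the chromosome for 26 of the 288 (9.03%), against 247 of the 11598 other eligible genes (2.13%) that neighbour a member. Pairs with the same family in their product names include UGT73B1 with UGT73B2, GSTU1 with GSTU2, and the SOUL heme-binding proteins AT1G78450 with AT1G78460. The sulfotransferase gene SOT12 lies beside AT2G03750, which the product name gives only as a P-loop protein. Other pairs include HB53 with UGT72E2, AMT1;3 with MYB305, UGT74E2 with BT3, UGT72E1 with BEH1 and CIPK25 with CYP71B11.

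The 250 bases upstream of protein-coding members and of other eligible genes were compared on both strands. The I-box GATAAG was present in 20% of members and 12.9% of the others. The TATA box TATAAA was in 54.7% and 45.9%, and the as-1 core TGACG in 23.2% and 19.1%. In genes with 33.3% to 50% left these shares were 18.2%, 52.0% and 21.0%, so they are not particular to the members. The site II element GGCCCA, known from promoters of ribosomal protein and cell-cycle genes, was present in 4.91% of members and 18.6% of the others. It was also at 8.04% in genes with 33.3% to 50% left and at 8.41% in genes that rose more than 3-fold, so its low share is not particular to the members. CGCGT, part of the element bound by calmodulin-binding CAMTA factors, was in 1.75% and 7.77%, against 20.7% in genes that rose more than 3-fold. CGCGT was at 3.53% in genes with 33.3% to 50% left, so a low share is not particular to the members. The evening element AAAATATCT, known from clock-regulated genes, was in 12 of 285 members (4.21%) and in 2.58% of the others. It was at 4.51% in genes with 33.3% to 50% left. The W-box core TTGAC was in 43.9% and 45.1%, the auxin response element TGTCTC in 10.5% and 9.83%, and the G-box CACGTG in 7.02% and 7.47%. In the last 150 bases of the 3′ untranslated region, the AU-rich pentamer ATTTA was in 41.5% of 241 members and 37.8% of 10417 others. The Pumilio element TGTANATA was in 7.05% and 4.53%. Among genes that rose more than 3-fold these shares were 45.2% and 7.57%, so neither is particular to the members. These are descriptions without a test.

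The machinery of decay itself was examined with a list of 49 genes, of which 45 passed the filter on low values. By limma 8 were higher and 9 lower, against 16.3% higher and 14.6% lower among all genes tested, and the median log2 change was -0.20 against -0.06 over all genes tested. The deadenylases CAF1a and CAF1b, catalytic subunits of the CCR4-NOT complex, rose most among its enzymes. Over the 14 tested genes listed for this complex, limma called 4 higher and 1 lower, with a median log2 change of -0.22. The lower one was AT5G10960, at 200 and 193 RPKM in the controls and at 135 RPKM in both glutamate libraries. CAF1a was at 17.7 and 14.3 RPKM in the controls and at 409 and 401 RPKM in glutamate, a log2 change of 4.58 ± 0.14 (SE, limma, adjusted p = 4.79e-05). CAF1b rose from 11.9 and 12.4 RPKM to 110 and 145 RPKM, a log2 change of 3.27 ± 0.17.

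The tandem zinc finger proteins, RNA-binding proteins of which several act in mRNA turnover, moved in both directions. SZF1 rose from 30.6 and 23.2 RPKM to 494 and 395 RPKM, and CZF1 from 38 and 30.5 RPKM to 336 and 317 RPKM. In contrast, 3 of the family are members. ATCTH, known as TZF1, fell from 148 and 181 RPKM to 29.4 and 35.5 RPKM, with a bound of 12.8 min. OZF1, known as TZF2, fell from 109 and 115 RPKM to 31.5 and 36.9 RPKM (17.6 min), and AT5G44260, known as TZF5, from 26.5 and 31.1 RPKM to 3.43 and 4.08 RPKM (10.2 min).

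Among genes of decapping and exonuclease decay, the exonuclease SOV was higher, with a log2 change of 0.54 ± 0.13 (limma, adjusted p = 0.0277). The decapping factors PAT1 and DCP2 were lower, with log2 changes of -0.85 and -0.79, the helicase RH6 of -0.58, and the nonsense-mediated decay helicase UPF1 of -0.47, with adjusted p from 0.00637 to 0.0489 by limma. The cytoplasmic exonuclease XRN4 had a log2 change of -0.20 ± 0.13 and the decapping subunits DCP1 and VCS of -0.03 ± 0.13 and -0.18 ± 0.14, none of which passed the test. The count of lower genes in this list depended on the scaling and on the library: it was 16 of the list when libraries were scaled to their totals, 18 with a replicate block, and 5 without either glutamate library. Whether any of these changes bears on the members' fall was not tested.

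**Figure D5:**
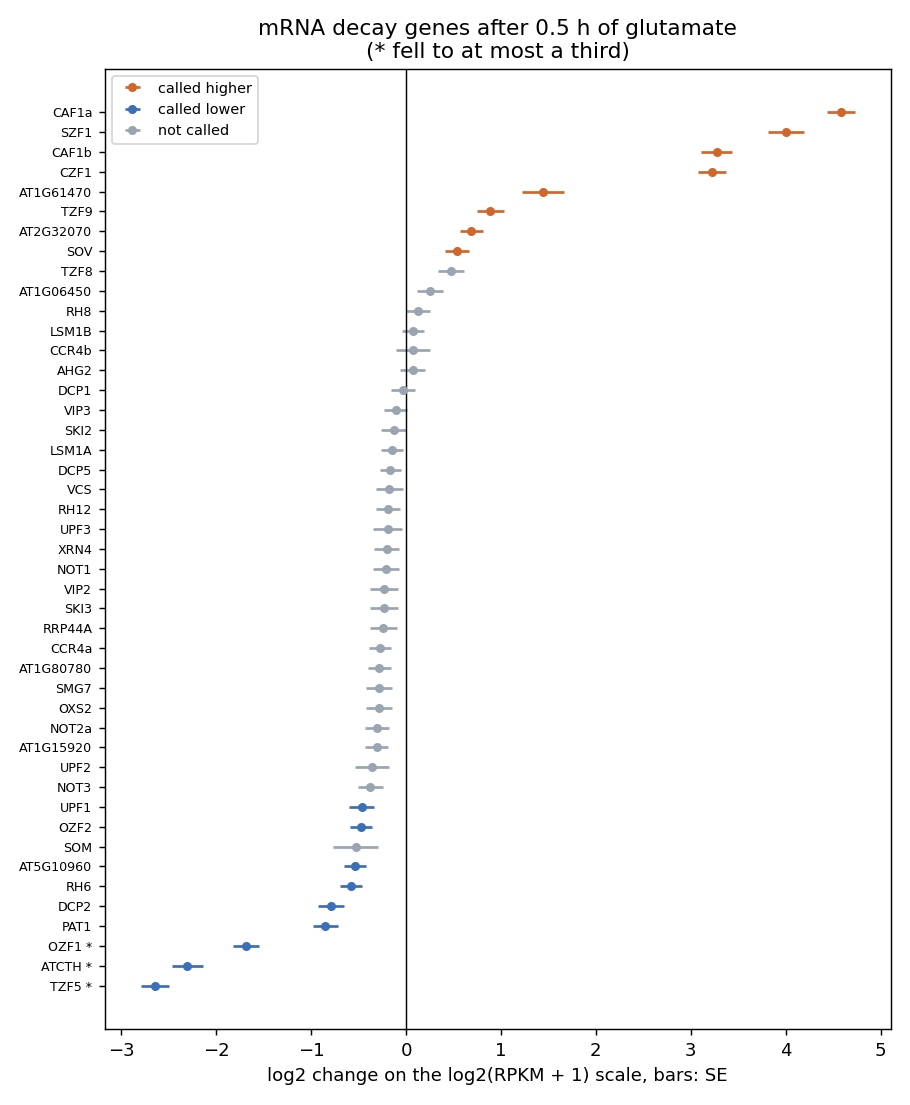
Log2 change after 0.5 h of glutamate on the log2(RPKM + 1) scale, with its SE from limma, for the 45 tested genes of mRNA decay, coloured by call. CAF1a, SZF1, CAF1b and CZF1 stand at 3.23 or more on the right, and the 3 members marked with an asterisk stand at -1.68 or lower on the left.

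Some values rest on counting that could mix genes. A maxMultiRatio of 0 was listed for 233 of the 288 members and the highest was 0.0918. The annotated span of 52 members (18.1%, against 27.8% of eligible genes) overlaps another gene, and the use of strand in counting is not given in the sources used here. Among the members described above these are AT3G15450, J8, CYP81D11, RTFL10, DFL2, BGAL4, UGT74F2, SNRK2-8, BBX14, FBH4, GRF3, AT1G06645, AT1G15125, BT4, ATL15, NRT1.5, NRT1.8, GLR3.5, FBS2, CH1, GUN4, PDS1 and MIR156d. Reads from the overlapping stretch cannot be assigned to one gene in these values.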

How the data were processed

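RNA-seq measured transcript levels in 4 libraries, 2 per group, grouped by their titles. Per the labels' protocols, total RNA was extracted with Trizol and libraries were made with an Illumina TruSeq kit. Per the submitters' processing notes, the genome build was TAIR10 and the tools included SAMtools. The sources used here do not give the aligner, the counting tool, its use of strand or any version. The authors deposited RPKM values with TMM scaling, a gene length and a fraction named maxMultiRatio, which the deposited header does not define and which was read as the share of reads that also match elsewhere. Read counts were recovered as (value × length × library size) minus 0.5 and were whole within 0.01 for at least 99.9% of genes with a fraction of 0. They served only for depth and for intervals, which cover counting error only.

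Gene models came from RefSeq TAIR10.1, where 32835 of 33602 identifiers matched. Classes were assigned by product name. limma 3.58.1 in R 4.3.3 was run on log2(RPKM + 1), two-sided, with a variance prior that follows intensity and Benjamini-Hochberg adjustment, for genes whose mean reached 1 RPKM. These steps were tested on simulated data. Fold changes on that scale understate those of low genes. Figures and other steps used Python 3.11.15, pandas 2.3.3, scipy 1.17.1 and matplotlib 3.10.9.

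Named by rule were the 10 members with the least left, the 10 with the highest control mean, the 3 most abundant in each class with at least 3 members, the 3 genes on each side of the threshold and the 6 called decay genes with the largest change. The members and lists were chosen with earlier results of these data known. Alternatives changed the scaling, the criteria, the pseudocount, the filter, the variance prior and the libraries used. Protein sequences were not used here.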

Additional observations from a re-analysis of the deposited data

How the results depend on the processing

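Of the 94 named genes, each kept its direction in every fit that tested it, 1311 results in all. They were chosen by their change in these same libraries, so that outcome was close to fixed in advance and gives no support. The number of transcripts that fell 3-fold or more was 403 with libraries scaled to their totals, 251 with the median log2 ratio set to 0 and 298 to 317 with a library left out. It was 182 when the lower control library was set against the higher glutamate library, 808 for a fall to 50% or less and 140 for a fall to 25% or less. The median bound on the half-life was taken over the original 288 members in each of these settings. It was 13.7 min with library totals and 15.8 min with the median ratio set to 0. The lower control against the higher glutamate library gave 17.0 min, and leaving a library out gave 14.96 to 15.05 min. Of the members, 284 or more were called lower in every fit to all 4 libraries but that restricted to a mean of at least 5 RPKM. That fit tested fewer genes and called 245. These fits called 2057 to 5280 genes lower in all. Nothing is read from the counts of members, because the same contrast chose them.

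Over all genes tested, 2585 were lower and 2888 higher (47.2% of calls lower). Library totals gave 4364 lower (64.2% of calls) and moved the median log2 change of all genes from -0.06 to -0.23, and the median set to 0 gave 40.3%. With a library left out, 1794 to 2085 were lower and 2482 to 2780 higher, the lone library of a group being assumed to vary like the others. Decay genes called lower numbered 16 with library totals and 5 to 6 with a library left out. Same-numbered libraries deviated together (r = 0.60, 2 pairs), which does not pair them, and a replicate block gave 5280 lower, 4445 higher and 18 decay genes lower. The causes were not tested. Depth limits 50 members with fewer than 100 glutamate reads.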
